A study of Mus musculus with 3 samples.

Results

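Fragments of the mitochondrial genome were examined in small RNA libraries of HL-1 cells, an established line from a mouse atrial tumour that keeps contracting in culture. Members were inserts of 18 to 25 nt that matched the mouse mitochondrial chromosome exactly, or that did so after a CCA was taken off their 3′ end. They were assigned by strand and position to the 37 mitochondrial genes, which are 22 tRNA, 2 rRNA and 13 coding genes, out of 37310 annotated genes. In all, 7004 of 1738385 distinct inserts were members, 6545 by an exact match and 459 only after CCA removal, and none of them matched the chromosome at several places. Inserts that also matched a nuclear chromosome exactly, 2947 of the 7004, were marked, since their origin cannot be told from the sequence.

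The study compared small RNAs after siRNA knockdown of Srf, the gene of serum response factor, which activates many muscle genes. All groups were HL-1 cells taken 48 h after transfection, with Lipofectamine, of siRNA (9 µl of a 20 µM stock), and by the labels they differ only in the siRNA. The labels contradict each other on it: for the title siSrf1 the siRNA entry reads Srf si2, and for the title siSrf2 it reads siNon, the unspecific siRNA. Groups follow the titles here, as the library labelled siSrf1 and the library labelled siSrf2, with 1 library each, and the sample titled siNon is not analysed here. Inserts on Srf exons, which hold transfected duplexes, had 20 sense and 16 antisense reads in the library labelled siSrf1. The library labelled siSrf2 had 1053 sense and 177 antisense reads there, against its entry siNon. The low counts of the library labelled siSrf1 stand beside a title and an entry that both name an Srf siRNA. Which siRNA each library received, and so whether 1 of them is a control, cannot be told here. The libraries held 14911499 and 14518157 reads, of which 7748874 and 7013026 were inserts of 18 to 25 nt. The hairpin of miR-1a, the leading miRNA of striated muscle, had 1605069 and 1149439 reads, and that of miR-499 70468 and 60852. Other hairpins of striated muscle had fewer reads: Mir133a-1 had 3197 and 5414, Mir208b 654 and 680, and Mir208a 210 and 305. Hairpins that mark other cell types had between 1 read (Mir200c, epithelium) and 1966 reads (Mir126, endothelium). Mir126, with 1966 and 1514 reads, thus lay above Mir208a and Mir208b.

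The mitochondrial genome is a compact circle, transcribed on both strands into long precursors from promoters in its control region. Most rRNA and coding genes are flanked by tRNA genes, and the mature RNAs are released when RNase P cuts at the 5′ end and ELAC2 at the 3′ end of each tRNA. The CCA to which the amino acid is attached is not encoded and is added to the cut tRNA by Trnt1. Heart muscle cells are rich in mitochondria, and the 13 proteins encoded there are subunits of the respiratory chain and of ATP synthase.

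Fragments were not spread evenly: the 10 most used 5′ ends held 29.2% of all mitochondrial reads. Of 32598 possible positions, counting both strands, 3750 were a 5′ end, and 68 of them held at least as many reads as all the others together. Windows around several of the most read 5′ ends, and around 1 where the interval of the ratio includes 0, are shown because the results turn on them. Each has 30 bases of the NCBIM37 mitochondrial chromosome, 5′ to 3′ on the strand of the fragment. Capitals begin at the 5′ end of the fragments, and the lower-case bases lie upstream of it.
mt-Rnr2, first base, plus strand, chrM:1086-1115: cactctgaACTAATCCTAGCCCTAGCCCTA
Antisense to mt-Nd5, minus strand, chrM:12358-12387: ggcctataAGTGGAATTAGATTGTCGTTGT
mt-Rnr1, interior, plus strand, chrM:734-763: aaacataaAAACGTTAGGTCAAGGTGTAGC
mt-Tq, first base, minus strand, chrM:3821-3850: cttactatTAGGATAAGGTGTTTAGGTAGC
mt-Tl1, first base, plus strand, chrM:2668-2697: agaaggttATTAGGGTGGCAGAGCCAGGAA
mt-Ts2, first base, plus strand, chrM:11605-11634: tattcaccAAGAAAGATTGCAAGAACTGCT
Base after mt-Tt, plus strand, chrM:15348-15377: tcaagacaTCAAGAAGAAGGAGCTACTCCC
Antisense to mt-Rnr2, minus strand, chrM:2475-2504: acgtaggaCTTTAATCGTTGAACAAACGAA

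Mitochondrial fragments made up a larger share of the library labelled siSrf2, for each kind of gene and for both strands. There were 5595 reads in the library labelled siSrf1 and 21854 in the library labelled siSrf2. Scaled to all inserts of 18 to 25 nt, the libraries differed 4.32-fold (exact binomial 95% interval 4.19 to 4.45), a log2 ratio of siSrf1 minus siSrf2 of -2.11 (-2.15 to -2.07). With 1 library per group there is no test and no replicate check, and intervals cover counting error only, since molecular identifiers were not used and copies made by PCR count as reads. In cultured cells, fewer cells of a type and less RNA per cell cannot be told apart.

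Fragments of several nuclear RNAs were higher in the same library, by less. Inserts on snoRNA genes, which guide modification of ribosomal RNA, had 5229 and 10664 reads and were 2.25-fold higher there (2.18 to 2.33). Inserts with 1 genome match on nuclear protein-coding genes had 4253 and 10094 reads, 2.62-fold higher (2.53 to 2.72). All inserts on these genes had 20009 and 26688 reads, 1.47-fold higher. Both sets include the inserts on Srf exons, with 20 and 1053 sense reads, which hold transfected duplexes. The ratios without them were not computed. Inserts on miRNA hairpins were 0.94-fold (4816665 and 4110825 reads), and those on genes annotated as nuclear rRNA were 0.93-fold (27265 and 22886 reads). Which nuclear rRNAs these genes stand for was not examined. The part that these shifts in the makeup of the libraries have in the mitochondrial difference was not tested.

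Among classes of mitochondrial insert, the 2 rRNA genes gave the most reads, and at 18 to 25 nt they differed least. rRNA in sense had 2907 and 8613 reads and was 3.27-fold higher in the library labelled siSrf2 (3.14 to 3.42). tRNA in sense had 647 and 2418 reads, 4.13-fold higher (3.78 to 4.51), and coding genes in sense 403 and 2342 reads, 6.41-fold higher (5.77 to 7.15). Inserts antisense to a gene had 1092 and 6436 reads, 6.51-fold higher (6.11 to 6.95), and those outside genes, nearly all in the control region, 546 and 2045 reads, 4.14-fold higher (3.76 to 4.56). The makeup differed with it: rRNA was 52.0% of mitochondrial reads in the library labelled siSrf1 (exact Clopper-Pearson 50.6 to 53.3) and 39.4% in the library labelled siSrf2 (38.8 to 40.1). Antisense inserts were 19.5% (18.5 to 20.6) and 29.4% (28.8 to 30.1), while tRNA was 11.6% (10.7 to 12.4) and 11.1% (10.7 to 11.5), with intervals that overlap. This depends on the lengths taken: with inserts of 15 to 28 nt, tRNA had 2367 and 5104 reads and differed less than rRNA, with log2 ratios of -1.20 (-1.27 to -1.13) and -1.42 (-1.47 to -1.37). The tRNA share was then 22.5% (21.8 to 23.4) and 13.1% (12.7 to 13.4). With 1 mismatch allowed, both ratios were -1.36. The plus strand, which carries both rRNA genes, had 3687 and 12188 reads, and the minus strand 1908 and 9666, a difference of 3.65-fold on the former and 5.60-fold on the latter. Fragments covered 30.8% of the 16299 positions of the plus strand in the library labelled siSrf1 and 59.3% in the library labelled siSrf2, and 29.3% and 57.5% of the minus strand.

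By gene, the difference ran in 1 direction. A gene was called apart if it had at least 20 sense reads summed over both libraries, differed at least 2-fold, and had its whole interval on 1 side of 0. Of the 37 genes, 33 had 20 reads, and 32 of these were past the rule, higher in the library labelled siSrf2, with none in the other direction. Over nuclear annotated genes, 24.4% of 565 with 20 reads were past the rule in that direction and 0.354% in the other, and the median log2 ratio was -0.16. The share was 70.2% for snoRNA genes, 51.6% for nuclear protein-coding genes, 19.2% for miRNA genes, 16.1% for snRNA genes and 0.0% for nuclear rRNA genes. Nuclear genes were counted in another way, by inserts wholly inside an exon with reads shared equally over all matches. Reads of mitochondrial genes were counted in full even where they also matched nuclear places. The median of the 33 mitochondrial genes was -2.31, from -0.61 to -4.52, but 17 of them reached 20 reads only with those of the library labelled siSrf2, where fragments are more frequent. Of the 16 with 20 reads in the library labelled siSrf1 alone, 15 were past the rule, and all 37 genes had a log2 ratio below 0. The exception among the 33 was mt-Tm. The other 4 genes, all tRNA genes, had too few reads: mt-Tl2 (2 and 6 reads), mt-Tr (1 and 16), mt-Td (0 and 9) and mt-Tt (0 and 18).

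**Figure D1:**
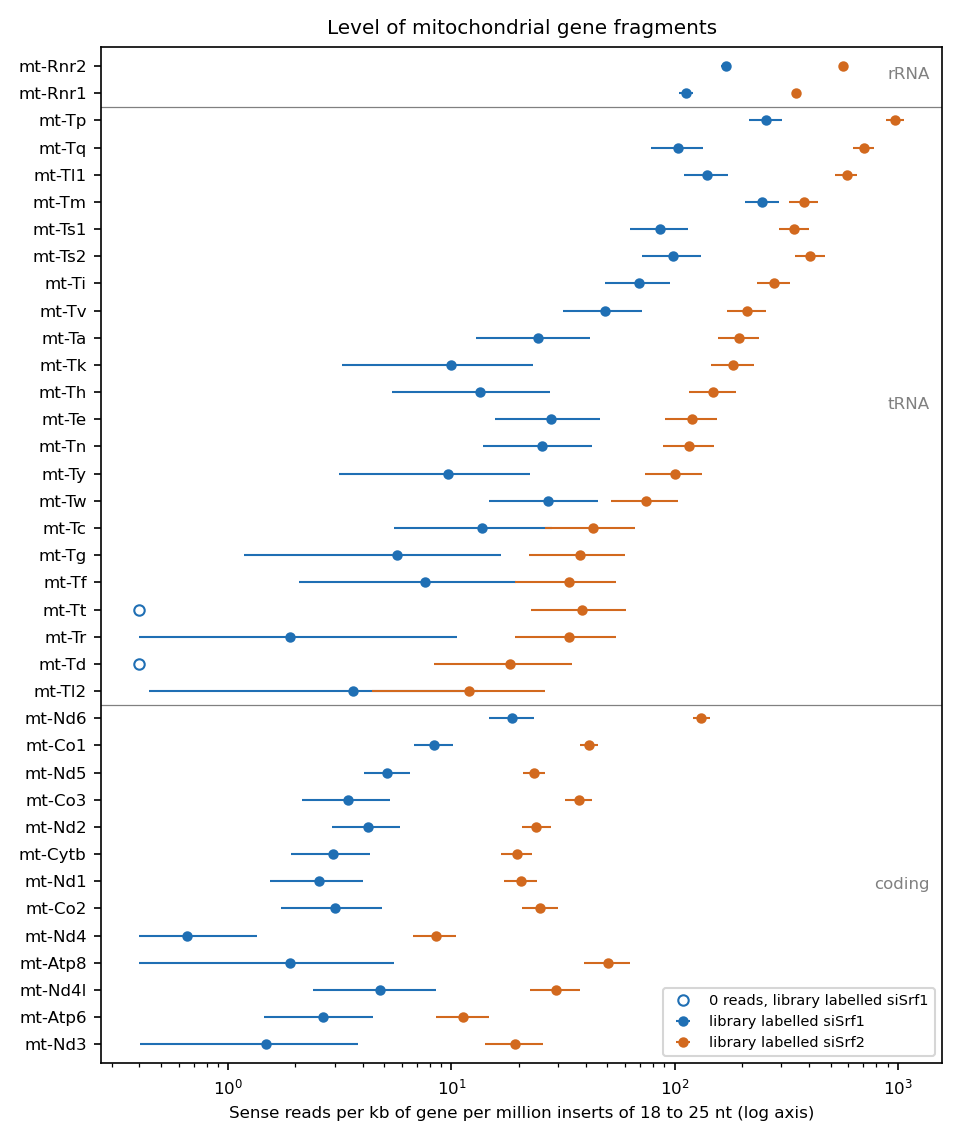
Sense reads per kb of gene per 1000000 inserts of 18 to 25 nt (log axis) for the 37 mitochondrial genes, with exact Poisson 95% intervals as bars cut at the left edge of the axis, in the library labelled siSrf1 (blue) and siSrf2 (orange). Open circles stand at the edge for genes with 0 reads (mt-Td and mt-Tt), and for each gene the orange point lies to the right of the blue one.

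Fragments of the 2 rRNA genes, which encode the RNAs of the mitochondrial ribosome, were frequent per length. mt-Rnr1, the small-subunit rRNA (chrM:70-1024, plus strand), had 832 and 2338 reads, a log2 ratio of -1.63 (-1.75 to -1.52). mt-Rnr2, the large-subunit rRNA (chrM:1094-2675, plus strand), had 2075 and 6275 reads, a log2 ratio of -1.74 (-1.81 to -1.67). Per kb of gene per 1000000 inserts these are levels of 112 and 349 for mt-Rnr1 and of 169 and 566 for mt-Rnr2. Both genes were thus apart by about the same amount as a whole.

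Along mt-Rnr2 the difference was far from uniform. Fragments that start at its first base, the base after mt-Tv, had 332 and 2847 reads and were 9.46-fold higher in the library labelled siSrf2 (8.45 to 10.6). Summed over both libraries they were the most read 5′ end of the chromosome, and made up 5.93% of mitochondrial reads in the library labelled siSrf1 and 13.03% in the library labelled siSrf2. All other mt-Rnr2 fragments together were 2.17-fold apart (2.05 to 2.30, 1743 and 3428 reads). In windows of 200 nt from the 5′ end, the difference was 3.74-fold (2.46 to 6.00) in the first, 3.85-fold (3.30 to 4.53) in the third, 2.95-fold (2.54 to 3.43) in the fifth, and 1.45-fold (1.32 to 1.61) and 1.77-fold (log2 ratio -0.82, interval -1.06 to -0.59) in the last ones, and between 2.18-fold and 2.88-fold in the others. mt-Rnr1 showed a like order, with 6.45-fold at its first base (3.81 to 12.3, 15 and 90 reads), 4.38-fold in the first window (3.11 to 6.42) and 1.36-fold in the last (0.87 to 2.13, 39 and 48 reads). The windows between were 3.04-fold, 3.45-fold and 2.97-fold apart in mt-Rnr1, so the order along the gene is not strict.

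**Figure D2:**
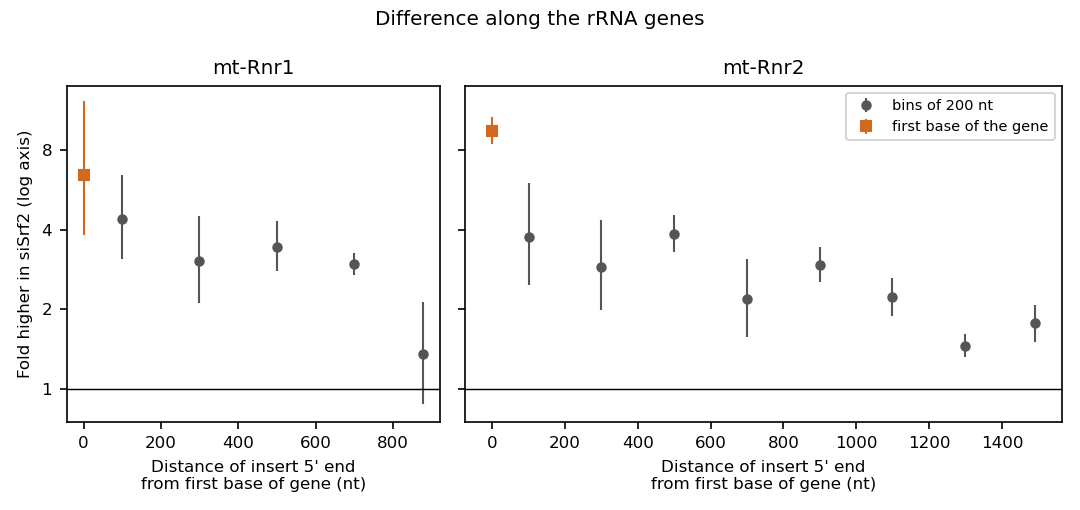
Fold difference (higher in the library labelled siSrf2, log axis) of sense reads by distance of the fragment's 5′ end from the first base of mt-Rnr1 and mt-Rnr2, in windows of 200 nt (points at their middle), with exact binomial 95% intervals. The first base (orange squares, 6.45-fold and 9.46-fold) lies above the other windows, and the lowest values (1.36-fold and 1.45-fold) stand near the 3′ end.

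Not all sites within the rRNA genes followed the rest of the chromosome, and only some of them are reported here. Fragments of mt-Rnr2 that start at chrM:2151-2152 (95 and 105 reads) and chrM:2497-2500 (84 and 73 reads) had log2 ratios of -0.29 (-0.70 to 0.13) and 0.06 (-0.41 to 0.53). On the opposite strand, fragments from chrM:2496-2497 had 191 and 184 reads, a log2 ratio of -0.09 (-0.39 to 0.21). These intervals include 0, whereas the interior site of mt-Rnr1 at chrM:740-746, with 366 and 867 reads, was 2.62-fold apart (2.31 to 2.97). A site at chrM:1531-1535 in mt-Rnr2, all of whose inserts also matched nuclear chromosomes, had 173 and 638 reads and was 4.07-fold apart (3.44 to 4.85).

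Among the tRNA genes, 18 of 22 had 20 reads and 17 were past the rule, with a median log2 ratio of -2.07. The share over nuclear annotated genes was 24.4% of 565. Several of the 18, such as mt-Tk and mt-Th, reached 20 reads only with those of the library labelled siSrf2. mt-Tp, the tRNA of proline on the minus strand, had the highest level per length of all 37 genes in both libraries. It had 133 and 456 reads, or 256 and 970 per kb per 1000000 inserts, and a log2 ratio of -1.92 (-2.21 to -1.64). mt-Tq (glutamine) had 57 and 351 reads (-2.76, interval -3.20 to -2.36), and mt-Tl1 (leucine) 81 and 310 reads (-2.07, interval -2.45 to -1.72). The serine tRNAs mt-Ts1 (46 and 166 reads) and mt-Ts2 (45 and 167 reads) lay at log2 ratios of -1.98 and -2.02. mt-Ti (isoleucine, 37 and 135 reads) and mt-Tv (valine, 26 and 102 reads) lay at -1.997 and -2.10. Summed over both libraries these 7 tRNAs had from 128 reads (mt-Tv) to 589 reads (mt-Tp), and the intervals of their ratios overlapped, except those of mt-Tq and mt-Tp. The ratio of mt-Tq moved with the processing, to -2.18 (-2.79 to -1.64) with inserts of 20 to 24 nt and to -1.07 with 1 mismatch (315 and 600 reads). Less read tRNAs with larger ratios were mt-Tk (lysine, 5 and 83 reads, -4.07), mt-Th (histidine, 7 and 70 reads, -3.38), mt-Ty (tyrosine, 5 and 47 reads, -3.25) and mt-Ta (alanine, 13 and 94 reads, -2.95). The others with 20 reads were mt-Tn (asparagine, 14 and 58 reads), mt-Te (glutamate, 15 and 58), mt-Tw (tryptophan, 14 and 35), mt-Tc (cysteine, 7 and 20), mt-Tg (glycine, 3 and 18) and mt-Tf (phenylalanine, 4 and 16), with log2 ratios between -1.44 and -2.55. tRNAs of the plus strand had a median of -2.05 (10 genes with 20 reads) and those of the minus strand -2.11 (8 genes).

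mt-Tm, the methionine tRNA that serves both the start and the inside of proteins, stood apart with 132 and 183 reads, a log2 ratio of -0.61 (-0.95 to -0.28), short of 2-fold. Fragments that start at chrM:3861-3863, inside the tRNA, made up 100 and 68 of these reads, a log2 ratio of 0.41 (-0.05 to 0.88), and 72.0% of these reads also matched nuclear chromosomes. Fragments from the 5′ end of the tRNA had 3 and 19 reads. Without inserts that also match nuclear chromosomes mt-Tm had 40 and 109 reads, a log2 ratio of -1.58, and with inserts of 15 to 28 nt it had 1587 and 1371 reads, a log2 ratio of 0.12.

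tRNA fragments came from 5′ ends and from the inside more than from 3′ ends. Inserts that begin within 2 nt of a tRNA's first base had 249 and 1161 reads, 38.5% (34.7 to 42.4) and 48.0% (46.0 to 50.03) of tRNA reads. Internal fragments had 343 and 1054 reads, 53.0% (49.1 to 56.9) and 43.6% (41.6 to 45.6). mt-Tq (47 and 302 reads), mt-Tl1 (78 and 271), mt-Ts2 (43 and 151), mt-Ti (35 and 118) and mt-Ts1 (30 and 112) gave most of the 5′ fragments. Most reads at the first bases of these tRNAs also matched nuclear chromosomes, so their origin cannot be told. The share was 100% for mt-Tl1, mt-Ts2 and mt-Ts1, 87.5% for mt-Ti and 55.7% for mt-Tq. mt-Tp had 1 and 35 of them, so its high level came from internal fragments, with 69 and 232 reads at chrM:15384-15388 on the minus strand. 3′ fragments that carry CCA had 48 and 169 reads from 20 tRNA genes, 7.42% (5.52 to 9.72) and 6.99% (6.00 to 8.08) of tRNA reads.

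Among the inserts counted, the CCA was present on nearly all fragments that end exactly where a tRNA gene ends. Of the reads that end there, 48 of 49 carried the CCA in the library labelled siSrf1 (98.0%, 89.1 to 99.9). In the library labelled siSrf2, 169 of 184 did (91.8%, 86.9 to 95.4). These shares depend on the counting rules. Lengths of 18 to 25 nt include the CCA, so inserts with it needed only 15 nt of tRNA and those without it 18 nt. Inserts with only part of the CCA do not count as ending there. The 5 most read inserts with CCA at a tRNA end are given to show the added bases, in capitals, which the chromosome does not encode there.
mt-Tv 3′ end, chrM:1079-1093, plus strand: caatgaacactctgaCCA
mt-Tv 3′ end, chrM:1078-1093, plus strand: ccaatgaacactctgaCCA
mt-Tw 3′ end, chrM:4995-5016, plus strand: aaacacacaagtttaacttctgCCA
mt-Te 3′ end, chrM:14071-14086, minus strand: atgctgtgtagaaataCCA
mt-Tf 3′ end, chrM:52-68, plus strand: attgtatcccataaacaCCA
They had 2 and 11, 6 and 3, 2 and 7, 2 and 7, and 1 and 7 reads in the order shown, too few to order the libraries one by one. The first also matches 1 nuclear place with its CCA. Without the CCA all 5 match nuclear places, 10, 1, 2, 5 and 1 in the same order. A CCA was also found on inserts whose remainder ends elsewhere, with 208 and 675 reads. The most read of these begins at the base after mt-Tt and had 31 and 150 reads and was 5.28-fold higher in the library labelled siSrf2 (3.61 to 8.15). Its remainder of 16 nt also matches 6 nuclear places.
Base after mt-Tt with CCA, chrM:15356-15371, plus strand: tcaagaagaaggagctCCA

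**Figure D3:**
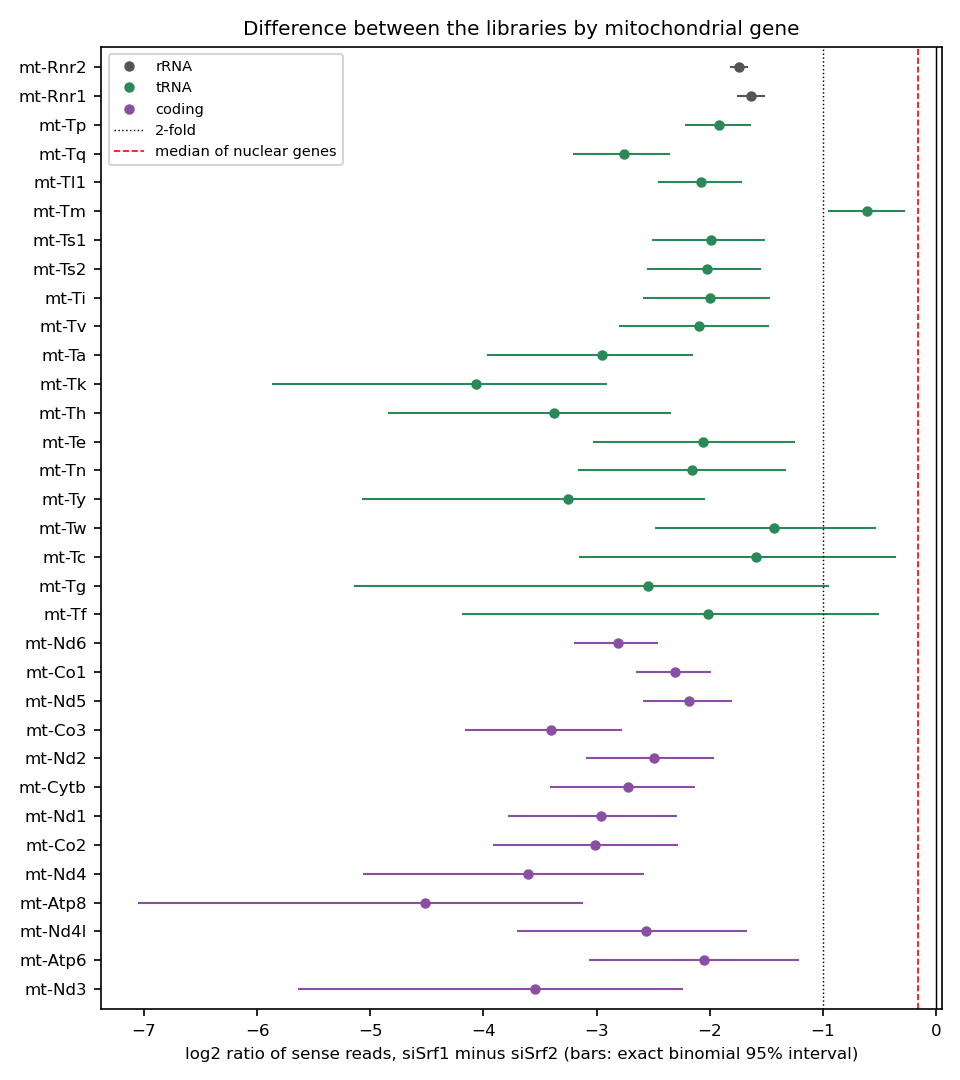
Log2 ratio of sense reads, siSrf1 minus siSrf2, for the 33 mitochondrial genes with at least 20 reads, with exact binomial 95% intervals, coloured by kind of gene. All points lie left of the median of nuclear genes (dashed, -0.16), and mt-Tm alone lies right of the 2-fold line (dotted).

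Fragments in sense to the 13 coding genes were fewer per length and further apart. All 13 had 20 reads and were past the rule, against 51.6% of nuclear protein-coding genes, with a median log2 ratio of -2.81. Several of the 13, such as mt-Atp8, mt-Co2 and mt-Nd4, reached 20 reads only with those of the library labelled siSrf2. mt-Nd6, the complex I subunit on the minus strand, had 75 and 480 reads, a log2 ratio of -2.81 (-3.19 to -2.47). It had the highest level per length among coding genes, 18.6 and 132 reads per kb per 1000000 inserts. mt-Co1, the catalytic subunit of cytochrome oxidase, had 100 and 450 reads (-2.31, interval -2.64 to -1.998), or 8.35 and 41.5 per kb per 1000000 inserts. Of its reads, 79.8% also matched nuclear chromosomes. The rest were 22 and 89 reads, a log2 ratio of -2.14.

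By respiratory complex, complex I, which takes electrons from NADH, had 7 of 7 genes past the rule. The share was 51.6% for nuclear protein-coding genes and 24.4% for all nuclear genes. Of the 7 complex I genes, 4 reached 20 reads only with those of the library labelled siSrf2. After mt-Nd6, mt-Nd5 had the most reads of it, 73 and 301 (-2.18, interval -2.58 to -1.81), and mt-Nd2 (34 and 175), mt-Nd1 (19 and 137), mt-Nd4 (7 and 82), mt-Nd4l (11 and 61) and mt-Nd3 (4 and 47) lay between -2.49 and -3.60. mt-Cytb, the only mitochondrially encoded subunit of complex III, had 26 and 158 reads (-2.72, interval -3.41 to -2.14). Cytochrome oxidase, complex IV, had 3 of 3 past the rule: besides mt-Co1 these were mt-Co3 (21 and 205 reads, -3.40, interval -4.15 to -2.78) and mt-Co2 (16 and 120 reads, -3.01). The ATP synthase genes, which overlap on the chromosome, held both ends of the range. mt-Atp8 had 3 and 72 reads, a log2 ratio of -4.52 (-7.04 to -3.12), and mt-Atp6 14 and 54 reads, a log2 ratio of -2.05 (-3.05 to -1.22).

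Antisense fragments outnumbered sense fragments over the 12 coding genes of the plus strand. Antisense reads there were 622 against 328 sense reads in the library labelled siSrf1, 65.5% (62.4 to 68.5), and 5337 against 1862 in the library labelled siSrf2, 74.1% (73.1 to 75.1). The opposite strand carries mt-Nd6 and 8 tRNA genes and is also transcribed into long precursors. Antisense exceeded sense in 7 and 9 of the 12 genes. Among inserts that match the mitochondrial chromosome alone the shares were 64.9% and 76.5%, but antisense exceeded sense in only 3 and 5 of the 12 genes. Of the 12 genes, 5 had no such sense reads left. Of 21 genes with 20 antisense reads, 19 were past the rule, all higher in the library labelled siSrf2, with a median of -2.98. The nuclear share of 24.4% given above is for sense reads, and no antisense share was computed for nuclear genes. Several of the 21 genes reached 20 antisense reads only with those of the library labelled siSrf2, such as mt-Nd1 (10 and 214 reads) and mt-Nd3 (7 and 57).

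Summed over both libraries mt-Nd5 had the most antisense reads, 205 and 1466, 7.89-fold higher in the library labelled siSrf2. Its main site, at chrM:12377-12383 on the minus strand, had 128 and 932 reads (8.02-fold, 6.68 to 9.76), none of which matched nuclear chromosomes. The antisense insert with the most reads summed over both libraries begins there.
Antisense to mt-Nd5, chrM:12361-12379, minus strand, no nuclear match: agtggaattagattgtcgt
It had 93 and 625 reads, 7.39-fold higher (5.96 to 9.34). Antisense reads of mt-Atp6 were 63 and 714 (12.4-fold), with 41 and 467 at chrM:8288-8293, a site whose inserts all matched nuclear chromosomes too. A site antisense to mt-Cytb at chrM:14228-14231 had 19 and 264 reads and a larger difference, 14.99-fold (9.64 to 25.9), with no nuclear match. Antisense reads of mt-Rnr2, in contrast, were 336 and 426 (1.40-fold), and 191 and 184 of them came from the site at chrM:2496-2497 described above.

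The control region (chrM:15423-16299), which holds the promoters and the origin of heavy-strand replication, gave fragments on 1 strand almost alone. The minus strand had 544 and 2017 reads and the plus strand 1 and 23. Sites within the region are not reported here.

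Fragments that begin at a border of genes differed more than the rest. The first base of any gene and the base after any tRNA make up 52 positions. They held 648 and 4527 reads, 11.6% (10.8 to 12.4) and 20.7% (20.2 to 21.3) of mitochondrial reads, a difference of 7.71-fold (7.11 to 8.39). All other 5′ ends were 3.87-fold apart (3.75 to 4.00). Among the borders, the first bases of rRNA genes were 9.34-fold apart (8.36 to 10.5), of which mt-Rnr2 made up nearly all reads. The first bases of tRNA genes were 5.20-fold apart (4.53 to 6.02, 240 and 1132 reads), and those of coding genes had 8 and 99 reads. Many reads at the first bases of tRNA genes also matched nuclear chromosomes, as given above for the tRNAs with the most 5′ fragments. Bases after a tRNA that begin no gene had 53 and 359 reads, 7.42-fold (5.60 to 10.2). Most of these were at the base after mt-Tt, with 43 and 256 reads, which lies opposite the 3′ end of mt-Tp, where the plus strand encodes no further gene.

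Longer mitochondrial fragments differed more between the libraries than shorter ones. The difference was 3.79-fold at 18 nt (3.56 to 4.05), 3.94-fold at 22 nt (3.60 to 4.31), 6.38-fold at 24 nt (5.75 to 7.12) and 9.18-fold at 25 nt (7.90 to 10.8). Part of this lay in the fragments from the first base of mt-Rnr2, which were long. The 5 most read of them, among the 10 most read of the chromosome, end at successive bases.
mt-Rnr2 first base, 21 nt, chrM:1094-1114, plus strand: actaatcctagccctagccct
mt-Rnr2 first base, 22 nt, chrM:1094-1115, plus strand: actaatcctagccctagcccta
mt-Rnr2 first base, 23 nt, chrM:1094-1116, plus strand: actaatcctagccctagccctac
mt-Rnr2 first base, 24 nt, chrM:1094-1117, plus strand: actaatcctagccctagccctaca
mt-Rnr2 first base, 25 nt, chrM:1094-1118, plus strand: actaatcctagccctagccctacac
They had 50 and 261, 44 and 326, 63 and 438, 92 and 872, and 49 and 775 reads in this order. The difference was 5.72-fold (4.25 to 7.97) at 21 nt, 8.11-fold (5.96 to 11.5) at 22 nt, 7.63-fold (5.89 to 10.2) at 23 nt, 10.4-fold (8.44 to 13.1) at 24 nt and 17.3-fold (13.1 to 23.8) at 25 nt. Without the fragments of this 5′ end the remaining mitochondrial inserts were 3.78-fold apart at 18 nt (3.54 to 4.04) and 6.26-fold at 25 nt (5.23 to 7.58). Another of the 10 most read inserts lies antisense to mt-Rnr2 at chrM:2478-2496, with 114 and 111 reads.

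**Figure D4:**
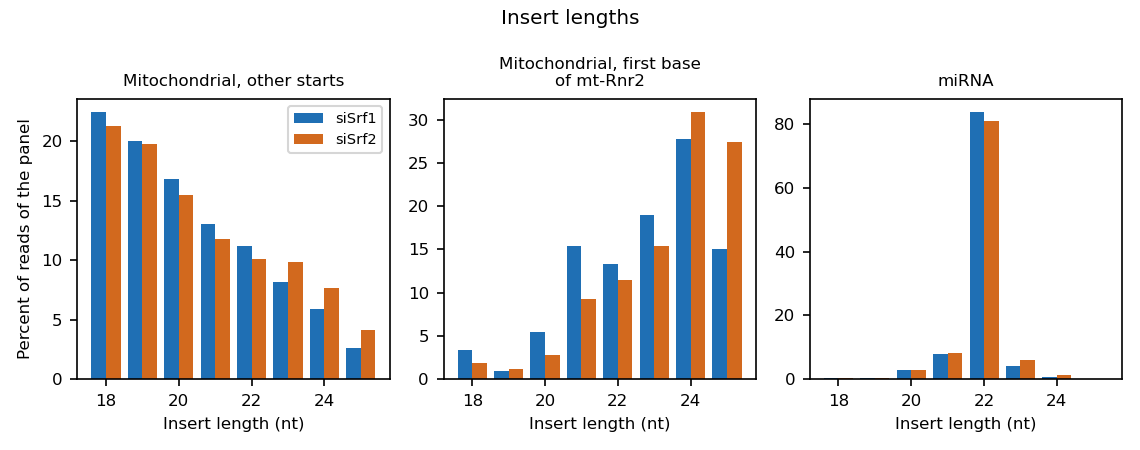
Percent of reads by insert length (nt) in the library labelled siSrf1 (blue) and siSrf2 (orange), for mitochondrial inserts with other 5′ ends, for those from the first base of mt-Rnr2, and for inserts on miRNA hairpins. The first fall steadily from 18 nt (22.4% and 21.2%), those of the mt-Rnr2 end peak at 24 nt (27.7% and 30.8%), and miRNA stands at 22 nt (83.8% and 80.9%).

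The length profile of mitochondrial fragments was unlike that of miRNA. Without the mt-Rnr2 end it fell from 22.4% and 21.2% of reads at 18 nt to 2.60% and 4.09% at 25 nt, whereas 83.8% and 80.9% of miRNA reads were 22 nt long. Nuclear rRNA fragments had a profile close to it, from 24.9% and 24.7% at 18 nt to 2.31% and 2.46% at 25 nt. Other classes also held more long inserts in the library labelled siSrf2: miRNA at 24 nt was 0.656% and 1.17% of miRNA reads, and snoRNA 2.79% and 6.66% at 24 nt and 2.95% and 5.21% at 25 nt. The part of this in the mitochondrial difference was not tested. By first base, A was the most frequent in both libraries (43.8% and 45.4% of mitochondrial reads). Inserts that begin with T were 5.91-fold apart (5.53 to 6.33) and those that begin with C 2.77-fold (2.57 to 2.98). By base composition, inserts with under 30% GC were 5.57-fold apart (4.79 to 6.54) and those with 60% or more 3.54-fold (3.19 to 3.94).

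Copies of mitochondrial sequence in the nuclear genome limit what can be assigned. Inserts that also match a nuclear chromosome held 31.4% of mitochondrial reads in the library labelled siSrf1 (30.2 to 32.7) and 38.3% in the library labelled siSrf2 (37.7 to 39.0). They were 5.26-fold apart (log2 ratio -2.40, interval -2.47 to -2.32), and inserts that match the mitochondrial chromosome alone, with 3836 and 13474 reads, 3.88-fold (3.74 to 4.02). Among reads with an exact match that were marked in this way, 81.3% had a single nuclear match, and chromosome 1 held matches of 39.8% of them, chromosome 2 of 17.96%, chromosome 9 of 15.3% and chromosome 10 of 11.9%. For 15 genes every read was marked, 10 of them tRNA genes, and the 5 coding genes mt-Co2, mt-Atp8, mt-Atp6, mt-Co3 and mt-Nd4l, which lie close together on the chromosome. Without the marked inserts, 16 genes had 20 reads (2 rRNA, 7 tRNA and 7 coding genes), and all 16 were past the rule. Of these, 7 reached 20 reads only with those of the library labelled siSrf2.

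Single inserts gave the same order as genes. Of 167 distinct mitochondrial inserts with 20 reads, 121 were past the rule, higher in the library labelled siSrf2, and 1 was higher in the library labelled siSrf1. Over distinct inserts with no mitochondrial match the shares were 13.6% and 1.82% of 4569. Distinct mitochondrial inserts numbered 2154 in the library labelled siSrf1 and 6075 in the library labelled siSrf2, and 1225 were seen in both.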

How the data were processed

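Small RNA of HL-1 cells was prepared with an Illumina kit and sequenced on the Genome Analyzer, per the labels' protocols. The authors deposited distinct sequences of 36 nt with the count of each, not normalized. Their aligner, filter and genome build are not given in these sources. The 3′ adapter was read from the bases after miR-499-5p, searched by its first 8 nt or, at the end of a read, by 4 nt or more. Inserts of 18 to 25 nt were searched in NCBIM37, both strands, exact matches only (Python 3.11.15, numpy 2.4.6, numba 0.67.0). Inserts ending in CCA were also matched without it if at least 15 nt remained. Genes came from GENCODE vM1. An insert went to the mitochondrial sense gene with the largest overlap of at least 50% of it, else to the antisense gene. For the shares of nuclear genes past the rule, inserts lay wholly inside an exon in sense. Their reads were shared equally over all matches.

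Reads were scaled to the total of inserts of 18 to 25 nt. The log2 ratio has a pseudocount of 0.5 reads and an exact binomial interval conditional on the sum of both counts (scipy 1.17.1, pandas 2.3.3). Shares carry Clopper-Pearson intervals and counts Poisson intervals. With 1 library per group no p-value was computed. The steps were tested on simulated data. All 37 genes are accounted for. Fuller values are given for the rRNA genes, the 8 tRNA and 4 coding genes with the most reads and genes past the size rule, and inserts named are the 10 most read, the 5 most read that end in CCA at a tRNA end and the most read antisense one. Some inserts and sites that these rules select are not reported here. Sites and any other inserts were chosen after their values were seen. The members and lists were chosen with earlier results of these data known. Alternatives were other totals, TMM factors (edgeR 4.0.16) and median-of-ratios size factors (R 4.3.3, DESeq2 1.42.0), insert lengths, 12 nt of adapter, nuclear matches, the CCA rule, 1 mismatch, sequences seen once, whole overlap, a pseudocount of 5 and minimums of 1, 10 and 50 reads. Leaving out the first base of mt-Rnr2 was added after seeing the data.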

Additional observations from a re-analysis of the deposited data

Results flagged for a closer look

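Mitochondrial fragments also appeared outside the lengths of the comparison. Inserts of 26 to 28 nt that match the mitochondrial chromosome exactly had 89 reads in the library labelled siSrf1 and 524 in the library labelled siSrf2, 0.268% and 1.21% of all inserts of these lengths. Of these, 65 and 390 matched no nuclear chromosome. Scaled to inserts of 26 to 28 nt, the difference was 4.51-fold (3.61 to 5.74, counting error only). Exact matches of 15 to 17 nt were more frequent, with 4804 and 16610 reads, and less far apart, 2.96-fold (2.87 to 3.06), and 1256 and 4166 of them matched no nuclear chromosome.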

How the results depend on the processing

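No paired analysis was possible because there is 1 library for each title. The log2 ratio of all mitochondrial inserts lay between -2.32 (sequences seen once left out) and -1.57 (1 mismatch) over 16 alternatives, and the ratios of rRNA, tRNA and coding genes and of antisense and intergenic inserts stayed below 0 and past 2-fold in the same alternatives. TMM factors moved every log2 ratio by 0.37 and median-of-ratios factors by 0.36, which put the median of nuclear genes at 0.21 and 0.19 and mitochondrial inserts at -1.74 and -1.75. The number of genes past the size rule was between 27 and 35 except without inserts that also match nuclear chromosomes, where 16 of 16 genes with 20 reads were past it, and fewer genes were tested. mt-Tm turned to 0.12 with inserts of 15 to 28 nt and to 0.044 with 1 mismatch, and passed the rule at -1.23 with inserts of 20 to 24 nt and at -1.58 without nuclear matches. mt-Tc lost the call under TMM factors (-1.22) and mt-Tw with inserts of 20 to 24 nt (-1.07). The cause was not tested. Without the first base of mt-Rnr2 the rRNA ratio was -1.31. Of 136 recomputed shares, 73 left their counting interval. Genes with few reads are limited by depth, and with 1 library per group none of these ratios can be set against the spread between cultures.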
